A study of Marchantia polymorpha with 78 samples.

Results

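MpPHOT (Mp5g03810) encodes the phototropin of the liverwort Marchantia polymorpha, and MpNCH1 (Mp5g07060) encodes a protein of the NPH3 family that works with phototropin in chloroplast movement. They are 2 of the 19355 genes of the deposited table and were taken by identifier, as a receptor and its partner. The values are TPM, a relative transcript abundance that is corrected for transcript length and sums to 1000000 in every library. Both genes were among the 13054 that reached at least 1 TPM in 3 or more libraries and were tested. RNA came from thalli of Tak-1, a wild-type male line. Gemmae were grown for 8 days under constant white light (23 °C), followed by 24 h without light. Plates then received white light (50 to 60 µmol m-2 s-1), blue light (peak 430 nm, 30 to 40), red light (peak 660 nm, 80 to 90) or far-red light (peak 730 nm, 30 to 40), or stayed in darkness. Sampling took place at 30, 60 and 180 min and at 12 and 24 h, and a time zero group was taken when the 24 h without light ended. That gave 26 groups of 3 biological replicates, 78 libraries in all, each pooled from 3 plants. Per the labels a plate carried 3 biological replicates, and a plate effect cannot be told apart from that of the treatment. The intensities differ between lights, so colour and intensity cannot be told apart either. All values describe 1 line in bulk tissue, where fewer cells of a type and less RNA per cell cannot be told apart.

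Phototropins are blue-light receptors. Their LOV domains bind a flavin that absorbs blue light, and light then switches on a serine/threonine kinase in the same protein. In land plants they direct the movement of chloroplasts, toward weak light (the accumulation response) and away from strong light (the avoidance response), and in flowering plants they also drive phototropism and the opening of stomata. NCH1 belongs to the NPH3/RPT2-like proteins, which carry a BTB domain and an NPH3 domain and bind phototropins in Arabidopsis. It is known for its part in the accumulation response in both Arabidopsis and Marchantia.

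The libraries were alike in what they detected, with 14791 to 15585 genes above 0 TPM. Read depth cannot be known from TPM, so no counting interval is given. MpRBCS, which encodes the small subunit of Rubisco and was the 1 matched marker of photosynthetic thallus, lay between 63.8 and 319 TPM in every library. It moved with the groups: at 24 h MpRBCS had 209 ± 4.23 TPM in white, 225 ± 5.41 TPM in blue, 176 ± 15.3 TPM in red and 66.8 ± 3.44 TPM in far-red light, against 124 ± 3.25 TPM in darkness and 302 ± 19.6 TPM at time zero. The log2 differences from darkness at 24 h were 0.75, 0.86, 0.50 and −0.88 in white, blue, red and far-red light, and darkness at 24 h differed by −1.28 from time zero. Of 4 antheridium and sperm markers, MpPRM, MpBNB and MpLC7 stayed at or near 0, and the 4 together summed to 0.177 to 3.16 TPM. The 3 rhizoid and gemma markers (MpRSL1, MpKAR and MpGCAM1) summed to 67.8 to 111 TPM in white light, 67.6 to 93.4 in blue light, 76.6 to 107 in red light and 48.2 to 71.3 in far-red light, against 35.7 to 62.7 in darkness and 33.7 to 44.5 at time zero. The part of MpRBCS and of these markers in the results below was not tested. The library of darkness at 60 min, replicate 3, stood apart. Its group held the lowest correlation between replicates (r = 0.9881 across genes, against a median of 0.995 over groups for the lowest pair). The members' 60 min differences from darkness, and those of darkness from time zero, are given with and without that library. The 60 min values of the ratio and of other genes are given only with it. The median of all tested genes also moved between groups, by 0.13 (log2) in white light at 30 min and 0.14 at 60 min, 0.17 and 0.18 in blue light, 0.17 and 0.20 in red light, and, under far-red light, 0.12 at 60 min and 0.12 at 24 h, each against darkness. In continued darkness it moved by 0.11 at 12 h and 0.10 at 24 h against time zero. Scaling the libraries to a common median of ratios removes that shift, and calls of the members that it changes are given with their results.

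Both genes were abundant in every library. MpPHOT averaged 276 TPM over the 78 libraries, which placed it at rank 540 of all genes, with 2.79% at or above it. MpNCH1 averaged 204 TPM, at rank 772, with 3.99% at or above it. MpPHOT was lowest in red light at 180 min, replicate 1 (136.5 TPM), had a median of 242 TPM and was highest in far-red light at 180 min, replicate 1 (587 TPM). MpNCH1 spanned less, with 98.7 TPM in red light at 12 h, replicate 2, a median of 216 TPM and 317 TPM in darkness at 12 h, replicate 3. Group means therefore spanned 3.99-fold for MpPHOT and 2.94-fold for MpNCH1. Replicates were close, with a median coefficient of variation of 4.07% for MpPHOT and 3.35% for MpNCH1. The widest group of MpPHOT was darkness at 60 min (15.6%), and that of MpNCH1 was far-red light at 60 min (7.94%).

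**Figure D1:**
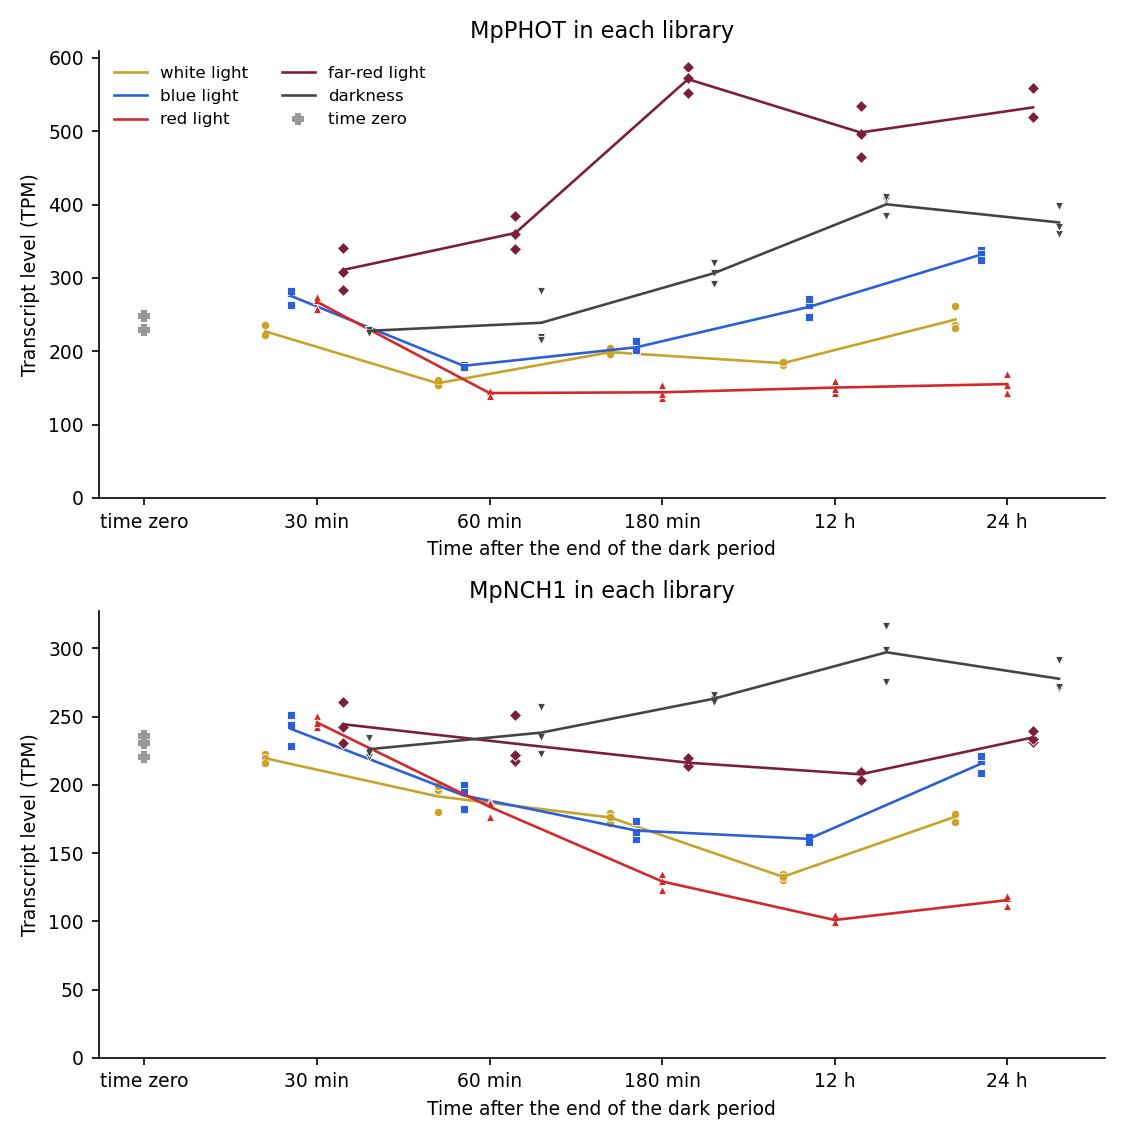
Transcript level (TPM) of MpPHOT (top) and MpNCH1 (bottom) in each library by time; points are the 3 libraries of a group and lines join group means. Far-red light lies highest for MpPHOT at all 5 times, whereas darkness lies highest for MpNCH1 from 180 min on, and red light lies lowest for both from 180 min on.

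The order of the 26 groups differed between the genes at its upper end, and at its lower end both had red light from 180 min on. Red light at 60 min, the lowest group of MpPHOT, was at place 18 for MpNCH1. For MpPHOT the highest group was far-red light at 180 min (571 ± 17.3 TPM, SD, n = 3), followed by far-red light at 24 h (533 ± 23.4 TPM) and 12 h (498 ± 34.8 TPM). Neighbours among these 3 overlapped, and all lay above the next groups, darkness at 12 h (400.5 ± 14.2 TPM) and 24 h (376 ± 19.98 TPM). The lower end was held by red light at 24 h (155 ± 13.1 TPM), 12 h (151 ± 8.54 TPM), 180 min (144 ± 8.68 TPM) and 60 min (143 ± 3.81 TPM), which overlapped each other, and the first of them overlapped white light at 60 min (156 ± 3.81 TPM). For MpNCH1 the highest groups were darkness at 12 h (297 ± 20.6 TPM), 24 h (278 ± 11.7 TPM) and 180 min (263 ± 2.54 TPM), of which the first pair overlapped. The highest far-red group, that of 30 min (244 ± 15.1 TPM), was at place 5 and overlapped its neighbours, red and blue light at 30 min. The lowest were red light at 12 h (101 ± 3.36 TPM), 24 h (116 ± 4.10 TPM) and 180 min (129 ± 5.83 TPM), and the last of these overlapped white light at 12 h (133 ± 2.03 TPM). Of the 25 pairs of neighbours in each order, 6 did not overlap and 19 did, for either gene. Every library of 11 groups was above every time zero library for MpPHOT and every library of 9 groups was below, out of 25 groups. For MpNCH1, 4 groups were above time zero and 13 were below. The share of all genes with such gaps or places was not counted, so these counts only describe the order. Some of the places changed under median-of-ratios scaling. With it blue and red light at 30 min overlapped time zero for MpPHOT. For MpNCH1 red light at 30 min (231 to 237 TPM) then lay below time zero (248 to 259 TPM), not above.

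In continued darkness both transcripts rose, MpPHOT further than MpNCH1. MpPHOT had 229, 229 and 226 TPM in darkness at 30 min, against 229, 248 and 229 TPM at time zero. In darkness it then had 220.1, 215 and 282 TPM at 60 min, 292, 307 and 321 TPM at 180 min, 407, 384 and 410.4 TPM at 12 h and 398, 359 and 369.8 TPM at 24 h. The last 3 times lay wholly above time zero and the first 2 did not. The log2 difference from time zero was 0.38 ± 0.063 at 180 min (SE; adjusted p = 2.23e-06), 0.77 at 12 h (adjusted p = 3.25e-16) and 0.67 at 24 h (adjusted p = 2.99e-14), by limma's moderated test with Benjamini-Hochberg adjustment over all tested genes. Every log2 difference is of log2(TPM + 1), with an SE of 0.063 for MpPHOT and 0.048 for MpNCH1 between any 2 groups, and a gene passed the test at an adjusted p under 0.05. The 12 h rise of MpPHOT, 1.70-fold, was among the larger ones, since 5.78% of tested genes differed as much. MpNCH1 had 263, 266 and 261 TPM in darkness at 180 min, 276, 299 and 317 TPM at 12 h and 291, 271 and 272 TPM at 24 h, against 230.5, 236 and 221 TPM at time zero. Those groups lay above time zero too, by 0.20 (adjusted p = 0.000528), 0.37 (adjusted p = 1.07e-09) and 0.28 (adjusted p = 1.27e-06). Under median-of-ratios scaling the MpNCH1 differences were 0.10, 0.23 and 0.17, all still past the test.

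At 30 and 60 min of darkness neither gene passed the test against time zero. MpNCH1 had 234, 221 and 224 TPM in darkness at 30 min and 235, 222 and 257 TPM at 60 min. The differences were −0.045 and 0.012 for MpPHOT and −0.018 and 0.056 for MpNCH1. Without replicate 3 of darkness at 60 min the 60 min differences were −0.11 for MpPHOT and −0.00061 for MpNCH1, and again neither passed. Few genes changed that early: by limma, 0, 8.28, 38.4, 55.6 and 57.4% of tested genes passed at the 5 times in order, so 0 passed at 30 min, where 704 had an unadjusted p under 0.05. Since darkness at the same time is what each light is set against, a light that held a transcript at its time zero level reads as a fall at the later times.

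Far-red light separated the genes: MpPHOT rose at all 5 times, and MpNCH1 fell at the 3 later ones. After 30 min MpPHOT had 283, 341 and 309 TPM in far-red light, against 228 ± 2.00 TPM in darkness. After 60 min it had 359, 340.0 and 385 TPM in far-red light, against 239 ± 37.2 TPM in darkness. Every far-red library exceeded every dark library at both times. After 180 min, where the gap was widest, it had 587, 553 and 573 TPM in far-red light, against 307 ± 14.2 TPM in darkness. At 12 h it had 534, 497 and 464 TPM in far-red light and 400.5 ± 14.2 TPM in darkness, and at 24 h 519, 559.7 and 519 TPM in far-red light and 376 ± 19.98 TPM in darkness. The groups did not overlap at any time. The log2 difference was 0.44 ± 0.063 at 30 min (adjusted p = 1.23e-07), 0.60 at 60 min (4.03e-12), 0.90 at 180 min (5.69e-19), 0.31 at 12 h (2.26e-05) and 0.50 at 24 h (2.21e-10). The 180 min rise was 1.86-fold, and 2.73% of tested genes differed as much, which put MpPHOT at rank 305 among the rises. At 30 and 60 min 10.6% and 10.7% differed as much, and at 12 and 24 h 38% and 31.6%. The test passed 39.7, 50.8, 43.5, 53.8 and 66.3% of tested genes at the 5 times in order and so passed many genes. Under median-of-ratios scaling the 12 h rise was 0.21, and without replicate 3 of darkness the 60 min rise was 0.73.

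MpNCH1 had 231, 261 and 242 TPM in far-red light at 30 min and 218, 222 and 251 TPM at 60 min, against 226 ± 7.09 TPM and 238 ± 17.6 TPM in darkness at those times. These groups overlapped, and the differences of 0.11 and −0.050 did not pass the test (adjusted p = 0.058 and 0.394). The 30 min difference passed without replicate 1 of darkness (0.14) or without replicate 1 of far-red light (0.15). At 60 min it was 0.0060 without replicate 3 of darkness. At 180 min MpNCH1 had 215, 214 and 219.5 TPM in far-red light and 263 ± 2.54 TPM in darkness. At 12 h it had 210.0, 209.7 and 204 TPM in far-red light and 297 ± 20.6 TPM in darkness, and at 24 h 231, 234 and 239 TPM in far-red light and 278 ± 11.7 TPM in darkness. All far-red libraries of these 3 times lay below those of darkness. The differences were −0.28 (adjusted p = 1.74e-06), −0.51 (3.12e-14) and −0.24 (1.23e-05), and at 12 h 17.3% of tested genes differed as much. Under median-of-ratios scaling the 24 h fall was −0.40 and the 60 min difference, −0.20, passed as well. The far-red libraries of all 5 times lay between 204 and 261 TPM. Those of 180 min and 12 h lay wholly below time zero (221 to 236 TPM), and those of the other times overlapped it. Under median-of-ratios scaling those of 24 h (213 to 222 TPM) lay below time zero (248 to 259 TPM) as well. The libraries of darkness lay above time zero from 180 min on.

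Both genes fell in red light, and from 180 min on they were lower there than in any other light. At 30 min MpPHOT had 269.6, 275 and 258 TPM in red light and 228 ± 2.00 TPM in darkness. That early difference of 0.23 ± 0.063 (adjusted p = 0.00123) passed the test with TPM as deposited but was 0.0013 under median-of-ratios scaling (adjusted p = 0.986), and the median gene was 0.17 higher at that time. From 60 min on MpPHOT was low in red light, with 145, 146 and 139 TPM at 60 min, 136.5, 142 and 154 TPM at 180 min, 159.9, 143 and 149 TPM at 12 h and 154, 169 and 143 TPM at 24 h. Darkness at those times had 239 ± 37.2 TPM, 307 ± 14.2 TPM, 400.5 ± 14.2 TPM and 376 ± 19.98 TPM. No red library of these times reached any dark library. MpPHOT fell by 0.73 at 60 min (adjusted p = 4.05e-16), 1.08 at 180 min (3.76e-24), 1.41 at 12 h (6.04e-30) and 1.27 at 24 h (8.28e-28). The 12 h level in red light was 0.377 of that in darkness, and 13.1% of tested genes differed as much. Without replicate 3 of darkness the 60 min difference was −0.60.

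MpNCH1, the partner gene, also fell in red light from 60 min on. At 30 min it had 242, 250.2 and 245 TPM in red light and 226 ± 7.09 TPM in darkness. The difference of 0.12 ± 0.048 passed (adjusted p = 0.0264), but not without replicate 2 (0.10) or 3 (0.11) of darkness or replicate 2 of red light (0.11), and its sign turned under median-of-ratios scaling (−0.11). At 60 min it had 188, 187 and 177 TPM in red light, against 238 ± 17.6 TPM in darkness. At 180 min it had 123, 129.7 and 135 TPM in red light, against 263 ± 2.54 TPM in darkness. At 12 h, the lowest group, it had 105, 98.7 and 99.4 TPM in red light, against 297 ± 20.6 TPM in darkness, and at 24 h 117, 119 and 111 TPM in red light, against 278 ± 11.7 TPM in darkness. The groups were apart at all 4 times. MpNCH1 fell by 0.37 at 60 min (adjusted p = 4.71e-10), 1.02 at 180 min (9.76e-29), 1.55 at 12 h (1.98e-38) and 1.26 at 24 h (1.03e-33). At 12 h 10.7% of tested genes differed as much. The 60 min difference was −0.31 without replicate 3 of darkness and −0.60 under median-of-ratios scaling. Of all tested genes 59.9, 70.3, 71.7, 78.4 and 80.4% passed at the 5 times in order. Both members were at least 2-fold lower in red light at 180 min, 12 h and 24 h, as 18.8, 24.3 and 29.6% of tested genes were at least 2-fold different in either direction.

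In white light both genes were below darkness from 60 min on, with the largest difference at 12 h. At 30 min MpPHOT had 224, 236 and 222 TPM in white light, against 228 ± 2.00 TPM in darkness, and MpNCH1 had 222, 220.0 and 216 TPM in white light, against 226 ± 7.09 TPM in darkness. Those groups overlapped, and neither −0.0048 (adjusted p = 0.957) nor −0.042 (adjusted p = 0.481) passed the test. Under median-of-ratios scaling both did, at −0.17 and −0.21. MpPHOT then had 155, 154 and 161 TPM in white light at 60 min, 204, 195 and 197 TPM at 180 min, 185, 181 and 186 TPM at 12 h and 237, 232 and 262 TPM at 24 h, with darkness at the levels given above. All of these libraries lay below the dark ones of the same time. Against time zero (229, 248 and 229 TPM) those of 60 min, 180 min and 12 h lay wholly below, and those of 24 h overlapped. The fall against darkness was 0.60 at 60 min (adjusted p = 7.32e-13), 0.62 at 180 min (1.04e-13), 1.12 at 12 h (6.94e-25) and 0.63 at 24 h (6.31e-14) on the log2 scale.

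MpNCH1 had 196, 179.9 and 199 TPM in white light at 60 min, 179, 172 and 177 TPM at 180 min, 131, 135 and 133 TPM at 12 h and 173, 179 and 179 TPM at 24 h. These lay below darkness at every one of the 4 times, and below time zero as well. Its fall was 0.31 at 60 min (adjusted p = 5.26e-08), 0.58 at 180 min (4.35e-17), 1.16 at 12 h (1.32e-31) and 0.65 at 24 h (2.22e-19). At 12 h both genes were more than 2-fold lower, as 23.4% of tested genes were at least 2-fold different, and 19.4% (MpPHOT) and 18.4% (MpNCH1) differed as much. The level in white light was then 0.460 of that in darkness for MpPHOT and 0.449 for MpNCH1. Of all tested genes 53.1, 65.7, 73.2, 77.6 and 78.4% passed at the 5 times in order. Without replicate 3 of darkness the 60 min differences were −0.47 for MpPHOT and −0.26 for MpNCH1, and under median-of-ratios scaling that of MpNCH1 was −0.48.

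Blue light, which phototropin itself absorbs, gave the smallest falls of the 3 visible lights at 12 and 24 h. At 30 min MpPHOT had 280.0, 283 and 264 TPM in blue light, against 228 ± 2.00 TPM in darkness. Every blue library was above every dark one, and the difference of 0.27 ± 0.063 passed (adjusted p = 0.000154), but it was 0.042 under median-of-ratios scaling (adjusted p = 0.497), where the median gene shift of 0.17 is removed. MpPHOT then had 181, 181 and 178 TPM in blue light at 60 min, 201, 214 and 202 TPM at 180 min, 263, 247 and 271 TPM at 12 h and 338, 333 and 325 TPM at 24 h. After the low at 60 min the group mean in blue light was higher at each later time. MpPHOT stayed below darkness at all 4 times, in every library. Against time zero (229, 248 and 229 TPM) its blue libraries lay wholly above at 24 h and overlapped at 12 h. The fall against darkness was 0.39 at 60 min (adjusted p = 1.22e-07), 0.57 at 180 min (1.76e-12), 0.62 at 12 h (1.16e-13) and 0.18 at 24 h (0.00913). The 24 h call rested on replicate 1 of darkness, without which the difference was −0.13 (adjusted p = 0.0751); under quantile normalization it was −0.28. The 60 min difference was −0.27 without replicate 3 of darkness and −0.61 under median-of-ratios scaling.

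MpNCH1 had 251, 244 and 228 TPM in blue light at 30 min, against 226 ± 7.09 TPM in darkness. The groups overlapped and the difference of 0.091 did not pass (adjusted p = 0.0958). It passed without replicate 3 of blue light (0.13) and turned to −0.14 under median-of-ratios scaling. In blue light MpNCH1 then had 199.8, 195 and 182 TPM at 60 min, 160.2, 174 and 166 TPM at 180 min, 162, 162 and 158 TPM at 12 h and 217, 221 and 209 TPM at 24 h, below every dark library each time. Its group mean was lowest at 12 h (160.5 ± 2.15 TPM), when that of MpPHOT had turned upward (261 ± 12.2 TPM). Against time zero (230.5, 236 and 221 TPM) the blue libraries of MpNCH1 lay wholly below at 60 min, 180 min and 12 h. Those of 24 h overlapped time zero, but lay below it under median-of-ratios scaling. The fall of MpNCH1 against darkness was 0.31 at 60 min (adjusted p = 7.35e-08), 0.66 at 180 min (1.67e-19), 0.88 at 12 h (1.52e-25) and 0.36 at 24 h (5.49e-10). At 12 h 24.2% of tested genes differed as much as MpNCH1 and 38.5% as much as MpPHOT. Of all tested genes 59.6, 67.8, 71.4, 75.1 and 76.8% passed at the 5 times in order. The 60 min difference of MpNCH1 was −0.25 without replicate 3 of darkness and −0.53 under median-of-ratios scaling.

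**Figure D2:**
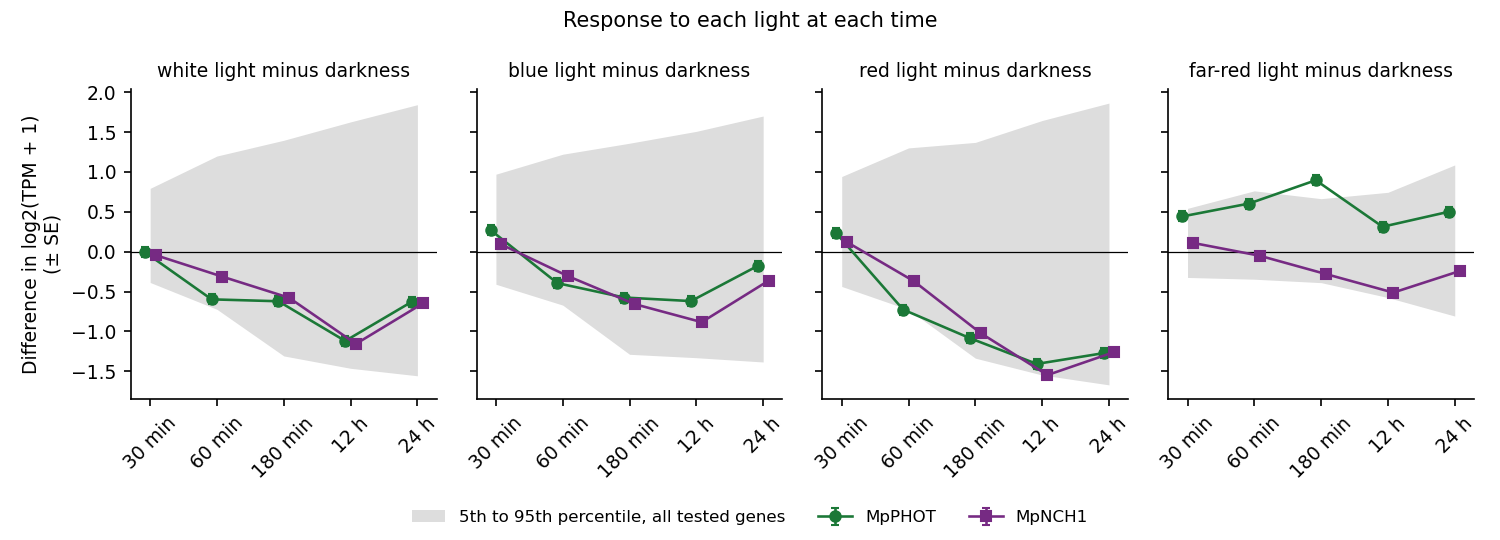
Difference of each light from darkness at the same time (log2 of TPM + 1, with SE, which is mostly hidden by the symbols) for MpPHOT and MpNCH1; the grey band holds the 5th to 95th percentile of all tested genes. In far-red light MpPHOT is above 0 at all 5 times and leaves the band at 180 min, with MpNCH1 lower each time. At 60 min of white, blue and red light MpPHOT is the lower of the pair, by least in blue light.

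Over the 20 comparisons of a light with darkness, MpPHOT passed the test in 19 (7 higher and 12 lower) and MpNCH1 in 16 (1 higher and 15 lower), and each was at least 2-fold lower in 4. Of all tested genes 39.7% (far-red light, 30 min) to 80.4% (red light, 24 h) passed in a comparison. In the 4 comparisons, 18.8 to 29.6% were at least 2-fold different in either direction. How many comparisons other genes passed was not counted. Under median-of-ratios scaling MpPHOT was higher in 5 and lower in 13, and MpNCH1 higher in 0 and lower in 19. Under quantile normalization MpPHOT was higher in 7 and lower in 12, and MpNCH1 was higher in 0 and lower in 16. Taken over the 5 times at once by limma's moderated F test, both genes differed from darkness in each light, with adjusted p between 2.35e-45 and 3.07e-16. So did 94.7% of tested genes in white light, 95.1% in blue light, 95.8% in red light and 84.3% in far-red light. The 24 h response less the 30 min response was −0.62 for MpPHOT and −0.61 for MpNCH1 in white light, −0.45 and −0.45 in blue light, and −1.5 and −1.38 in red light (SE 0.089 for MpPHOT and 0.067 for MpNCH1). All 6 passed, with the largest adjusted p at 9.17e-06. In far-red light this difference of responses was 0.061 for MpPHOT (adjusted p = 0.602) and −0.35 for MpNCH1 (adjusted p = 1.27e-05). Of all tested genes 70.7%, 72.6%, 75.2% and 48.8% passed in white, blue, red and far-red light. Under median-of-ratios scaling the blue values were −0.26 for MpPHOT and −0.27 for MpNCH1.

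Blue and red light are set against each other in the study's title, and both genes were higher in blue than in red light from 180 min on. At 24 h MpPHOT had 332 ± 6.68 TPM in blue light and 155 ± 13.1 TPM in red light, and MpNCH1 had 216 ± 6.30 TPM in blue light and 116 ± 4.10 TPM in red light. No library overlapped. Blue minus red was 0.042, 0.33, 0.51, 0.79 and 1.09 for MpPHOT at the 5 times in order, and all but the first passed (adjusted p = 0.000144 at 60 min and 2.24e-23 at 24 h). For MpNCH1 it was −0.029, 0.063, 0.36, 0.66 and 0.89, and the last 3 passed (adjusted p = 5.79e-09 at 180 min and 7.81e-25 at 24 h). Here the background was lower, with 2.13, 4.91, 27.3, 30.7 and 45.2% of tested genes past the test. Few tested genes differed as much at the last 2 times. As large a difference was found in 2.04% of tested genes for MpPHOT and 3.16% for MpNCH1 at 12 h, and in 2.78% and 4.32% at 24 h. MpPHOT at 24 h was 2.14-fold higher in blue than in red light, a level of difference that 3.28% of tested genes reached in either direction.

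White light was compared with blue and with red light in turn. White minus blue was −0.28, −0.20, −0.047, −0.50 and −0.45 for MpPHOT and −0.13, −0.0054, 0.081, −0.27 and −0.29 for MpNCH1 at the 5 times in order, where 7.12, 10.8, 22.5, 27.4 and 41.5% of tested genes passed. White minus red was −0.23, 0.13, 0.46, 0.29 and 0.65 for MpPHOT and −0.16, 0.057, 0.44, 0.39 and 0.61 for MpNCH1, where 4.11, 19.5, 28.4, 13.5 and 46.7% passed. From 12 h on both genes were lower in white than in blue light and higher in white than in red light. Under median-of-ratios scaling white minus red also passed at 60 min, at 0.19 for MpPHOT (adjusted p = 0.00565) and 0.12 for MpNCH1 (adjusted p = 0.0365), and quantile normalization gave 0.17 for MpPHOT (adjusted p = 0.0291). The later differences passed with TPM as deposited at 12 h (largest adjusted p = 0.000491) and at 24 h (largest adjusted p = 1.56e-06). MpPHOT was lower in blue and in red light than in far-red light. Blue minus far-red was −0.17, −1.0, −1.47, −0.93 and −0.68 for MpPHOT and −0.020, −0.26, −0.38, −0.37 and −0.12 for MpNCH1, where 39.2, 50.4, 67.9, 70.1 and 72.4% of tested genes passed. Red minus far-red was −0.21, −1.33, −1.98, −1.72 and −1.77 for MpPHOT and 0.0092, −0.32, −0.74, −1.03 and −1.02 for MpNCH1, where 42.2, 55.2, 71.2, 74.2 and 77.3% passed. MpPHOT passed in all 10 of these comparisons. At 180 min it had 0.253 of its far-red level in red light, and 2.66% of tested genes differed as much. MpNCH1 passed in 8, all but those at 30 min, and under median-of-ratios scaling these passed too, at −0.16 for blue minus far-red (adjusted p = 0.0015) and −0.13 for red minus far-red (adjusted p = 0.00993).

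Of the 39 differences between lights that passed for either gene, 7, none larger than 0.28, ended when 1 library was left out. For MpPHOT, white minus blue at 30 min ended without replicate 3 of white light (−0.26) or replicate 1 (−0.26) or 2 (−0.26) of blue light. At 60 min it ended without replicate 1 (−0.20) or 2 (−0.19) of white light or replicate 1 (−0.20), 2 (−0.20) or 3 (−0.21) of blue light. White minus red at 30 min ended without replicate 1 (−0.22) or 3 (−0.22) of white light or replicate 1 (−0.23) or 2 (−0.22) of red light. Blue minus far-red at 30 min ended without replicate 3 of blue light (−0.14) or replicate 2 of far-red light (−0.10), and red minus far-red at 30 min without replicate 2 of far-red light (−0.14). For MpNCH1, white minus red at 30 min ended without any 1 of its 6 libraries (−0.17 to −0.15), and also under median-of-ratios scaling (−0.10) and quantile normalization (−0.13). Blue minus far-red at 24 h ended without replicate 3 of blue (−0.10) or of far-red light (−0.11), and was −0.0053 under median-of-ratios scaling. Median-of-ratios scaling widened the 30 min differences of MpPHOT to −0.31 for blue minus far-red and −0.35 for red minus far-red. White minus blue of MpNCH1 at 30 min passed once replicate 3 of blue light was left out (−0.17). The differences at 180 min and later, other than that of MpNCH1 between blue and far-red light at 24 h, kept their call without any 1 library.

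Because the genes share each library, the ratio of MpPHOT to MpNCH1 shows where they moved apart, and the scaling of the libraries cancels in it. Its largest difference from darkness was in far-red light. The 3 libraries had ratios of 1.23, 1.31 and 1.27 after 30 min of far-red light, 1.65, 1.53 and 1.53 after 60 min, 2.73, 2.58 and 2.61 after 180 min, 2.54, 2.37 and 2.28 after 12 h and 2.24, 2.39 and 2.17 after 24 h. In darkness they had 0.979, 1.04 and 1.01 after 30 min, 0.936, 0.966 and 1.10 after 60 min, 1.11, 1.15 and 1.23 after 180 min, 1.48, 1.28 and 1.30 after 12 h and 1.37, 1.33 and 1.36 after 24 h. Time zero libraries had 0.994, 1.05 and 1.04. The far-red libraries were above the dark ones at 5 of 5 times. Averaged over the times, the ratio was 1.68-fold higher in far-red light than in darkness (0.75 on the log2 scale; two-sided exact permutation test with libraries exchanged within each time, p = 6.25e-07, the smallest these 3200000 arrangements can give, and 1.56e-06 after Benjamini-Hochberg adjustment over 5 comparisons). In blue light it was higher than in darkness by 0.13 (exact permutation p = 0.00128, adjusted 0.00213), with all libraries above at 3 of 5 times. At 60 min the mean ratio was lower in blue light than in darkness (0.938 against 0.999), and the libraries overlapped. With 1 replicate number left out, the blue difference was 0.12 to 0.13 (largest adjusted p = 0.0373, same exact test). The ratio differed by −0.046 in white light (adjusted p = 0.241) and −0.037 in red light (adjusted p = 0.399) in the same exact test. Single times differed from these averages: in white light all libraries were below the dark ones at 1 of 5 times (60 min) and above at 0, and in red light they were above at 1 (30 min) and below at 1 (60 min). Blue minus red was 0.16 (exact permutation p = 6.25e-07, adjusted 1.56e-06), in the same direction at 5 of 5 times. The ratio was not the same at all times. At 60 min it was below 1 in all libraries of red (0.768, 0.781 and 0.784), blue (0.908, 0.929 and 0.978) and white light (0.789, 0.855 and 0.808). By 12 h it was 1.52, 1.45 and 1.495 under red, 1.62, 1.53 and 1.72 under blue and 1.42, 1.34 and 1.40 under white light.

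**Figure D3:**
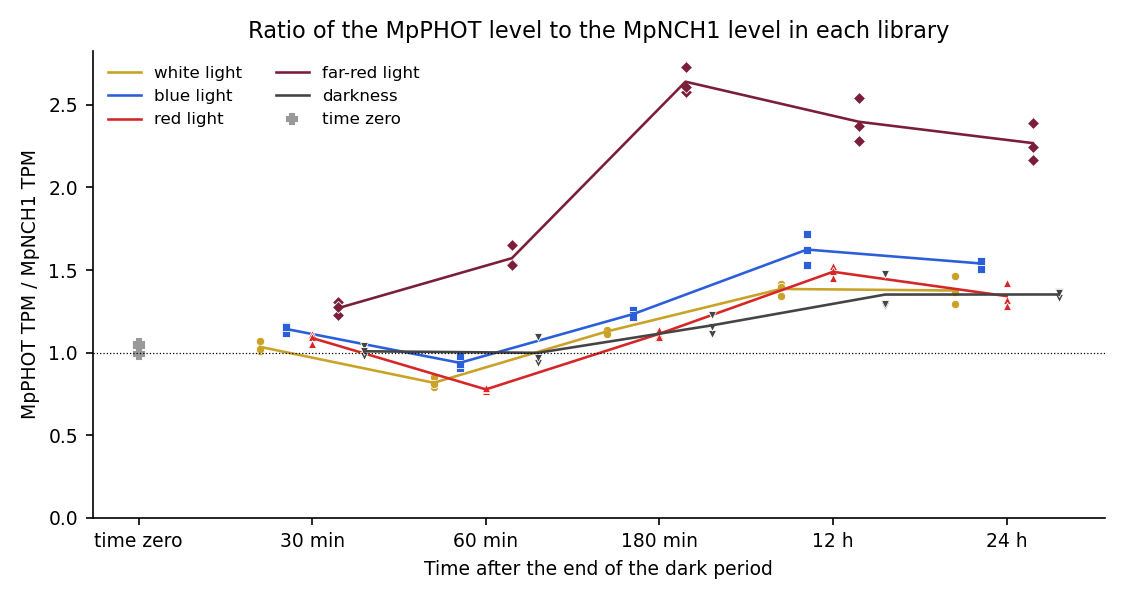
Ratio of the MpPHOT level to the MpNCH1 level (TPM over TPM) in each library by time; points are libraries, lines join group means and the dotted line marks equal levels. Far-red light stands above every other condition at all 5 times, with a mean of 2.64 at 180 min, against 1.17 in darkness.

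The other photoreceptors and the NPH3-family relative MpNPH3 were set beside the pair. MpNPH3, whose Arabidopsis counterpart binds phototropin and is needed for phototropism, had 139 ± 4.30 TPM in far-red, 47.0 ± 7.36 TPM in red, 79.6 ± 0.821 TPM in blue and 78.9 ± 3.80 TPM in white light at 24 h, against 183 ± 8.28 TPM in darkness (SD, n = 3). Its log2 difference from darkness was −0.080, −0.29, −1.44, −1.58 and −1.95 in red light at the 5 times in order and −0.021, −0.15, −1.24, −1.38 and −1.19 in blue light. In far-red light (0.43, 0.37, 0.25, −0.41 and −0.39) it passed as higher at 30, 60 and 180 min, as MpPHOT did, and as lower at 12 and 24 h, as MpNCH1 did. Under both other scalings the early MpNPH3 differences in blue and red light, −0.021 and −0.080 at 30 min, passed as falls (−0.25 and −0.31 with the median of ratios).

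MpCRY, a cryptochrome and thus also a blue-light receptor, and MpPHY, the red and far-red receptor phytochrome, had the patterns most like that of MpPHOT among these genes. At 180 min MpPHY had 703 ± 66.9 TPM in far-red light and 108 ± 3.80 TPM in red light, against 273 ± 18.3 TPM in darkness. MpCRY had 448 ± 16.3 TPM in far-red light and 85.5 ± 6.45 TPM in red light, against 309.9 ± 19.9 TPM in darkness. In far-red light both were higher than darkness at all 5 times, by 1.09, 1.64, 1.36, 1.17 and 1.12 for MpPHY and 0.54, 0.73, 0.53, 0.49 and 0.55 for MpCRY, as MpPHOT was. In red light MpCRY differed by −0.14, −1.62, −1.85, −2.03 and −2.48, and all but the first passed. MpPHY differed by 0.75, 0.27, −1.33, −1.70 and −1.83 in red light, so it was higher at 30 and 60 min and lower from 180 min on, although its 60 min rise did not pass under either other scaling. MpFKF, whose Arabidopsis counterpart is a LOV-domain protein of day-length sensing, was higher at 30 and 60 min and lower at 12 and 24 h in white, blue and red light (0.64, 0.55, 0.039, −0.46 and −1.05 in blue light). MpUVR8, the UV-B receptor, stayed within −0.43 to 0.41 of darkness in every light. MpCRY-DASH, of a cryptochrome branch known for DNA repair, peaked at 180 min of blue light with 41.7 ± 1.197 TPM, against 9.89 ± 0.542 TPM in darkness.

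Of these 5 other photoreceptors, at 12 h 1 was higher and 3 were lower in white, 1 and 3 in blue and 1 and 3 in red light, beside 77.6%, 75.1% and 78.4% of all tested genes that passed. With 5 genes such shares are near the background. The count of lower ones was 4 in white light under both other scalings and 4 in red light under quantile normalization. In far-red light 4 were higher and 0 were lower at 12 h, beside 53.8% of all tested genes. There 3 were higher under either other scaling, with MpUVR8 the one that no longer passed, and under quantile normalization MpCRY-DASH passed as lower (−0.23). The median log2 difference of the 5 at 12 h was −0.50 in white, −0.46 in blue, −0.57 in red and 0.45 in far-red light. All tested genes had medians of 0.071, 0.047, 0.052 and 0.074 there. The genes of chloroplast movement other than MpNCH1, 14-3-3 proteins and AGC kinases had no symbol match and were not analysed here.

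**Figure D4:**
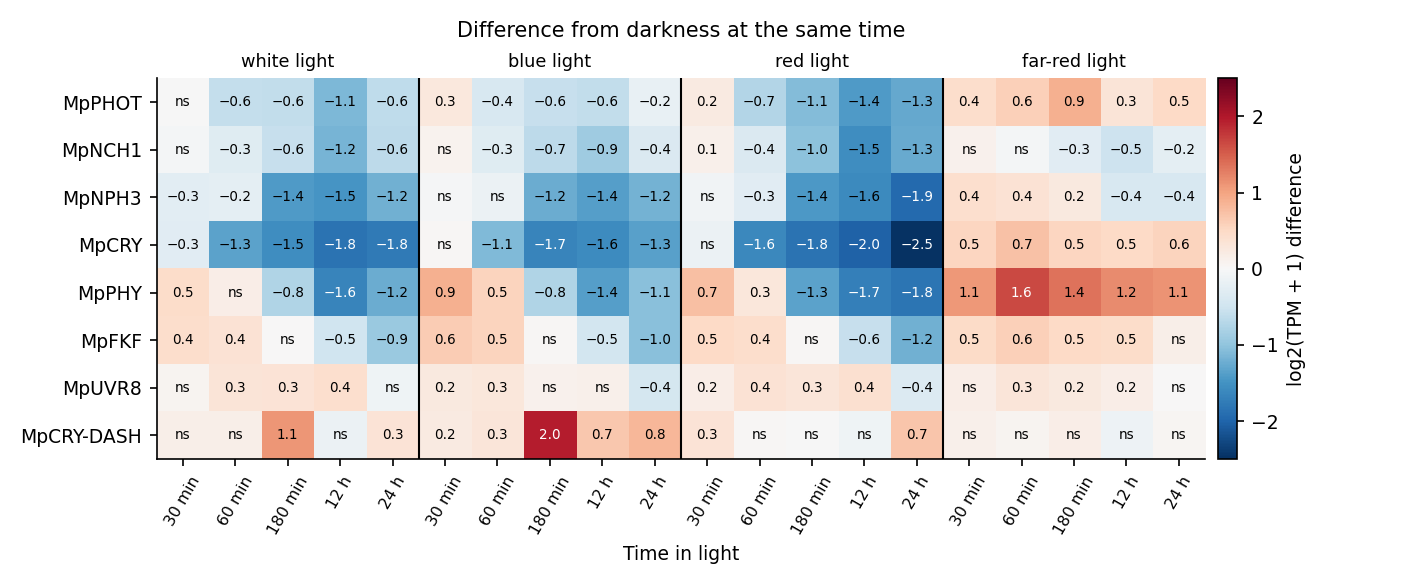
Log2 difference from darkness at the same time for MpPHOT, MpNCH1, MpNPH3 and the 5 other photoreceptors, by light and time; red is higher and blue lower than darkness, and ns marks differences that did not pass the test. MpPHOT, MpCRY and MpPHY are above darkness at all 5 times of far-red light, and MpNCH1 and MpNPH3 fall there at 12 and 24 h.

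Over the 26 group means of log2(TPM + 1), the members correlated with each other at r = 0.67 (rho = 0.69), which put MpNCH1 at rank 619 of 13053 genes in likeness to MpPHOT and MpPHOT at rank 2231 in likeness to MpNCH1. These are descriptions, since the points share libraries and all contrasts share the course of darkness. MpPHOT was more like MpCRY (r = 0.92) and MpPHY (r = 0.89) than like MpNCH1. MpNCH1 was most like MpNPH3 within these lists (r = 0.88, against 0.70 for MpPHOT with MpNPH3). The correlations with MpPHOT and MpNCH1 were 0.49 and 0.50 for MpFKF, −0.10 and −0.42 for MpUVR8, and −0.21 and −0.19 for MpCRY-DASH.

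Among all genes with a symbol, the 5 most like MpPHOT were MpALMT2 (r = 0.942), named for aluminium-activated malate transporters, the bHLH transcription factor MpBHLH52 (0.922), MpDOXC29 (0.919), of the 2-oxoglutarate-dependent dioxygenases, MpCRY (0.916) and MpTPS3 (0.911). They averaged 32.0, 39.4, 63.9, 197 and 25.9 TPM. The least like were MpAPX3 (−0.849), an ascorbate peroxidase by name, and MpCupin19 (−0.841). For MpNCH1 the 5 most like were MpTRIHELIX33 (0.914), a trihelix transcription factor by name, MpFHY1 (0.900), whose Arabidopsis counterpart carries phytochrome A into the nucleus, MpBHLH40 (0.899), the CBL-interacting kinase MpCIPK-B (0.898) and MpEXL3 (0.895). The least like were MpUGT10 (−0.911), a UDP-glycosyltransferase by name, and MpRR-MYB3 (−0.894). No gene was on both lists.

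Plasma membrane proton pumps, which phototropin signalling activates in Arabidopsis guard cells, could also be matched, as 18 MpHA genes of which 16 were tested. Whether their transcripts depend on MpPHOT was not tested. MpHA9 and MpHA7 never exceeded 0.117 and 0.355 TPM. At 60 min 11 of the 16 were higher and 1 lower in white, 13 and 0 in blue, 14 and 1 in red, and 10 and 0 in far-red light. Of all tested genes 65.7%, 67.8%, 70.3% and 50.8% passed in either direction in white, blue, red and far-red light then. The share of all tested genes that were higher is not given here. Their median difference was itself above 0 then, at 0.14, 0.18, 0.20 and 0.12 in the same order of lights. The pumps did not keep to that direction: at 180 min 3 were higher and 3 lower in blue light and 3 and 3 in red light, and at 24 h 7 and 7 in white light and 4 and 8 in far-red light. Median-of-ratios scaling left 10, 9, 12 and 5 higher in white, blue, red and far-red light at 60 min, and quantile normalization left 10, 8, 9 and 4. By 24 h of blue light 8 were higher and 5 lower, beside 76.8% of all tested genes that passed. MpHA14 had 286 ± 12.2 TPM in blue light and 55.3 ± 1.34 TPM in darkness (2.35; adjusted p = 8.34e-39), and MpHA18 had 20.1 ± 2.82 TPM in blue light and 4.20 ± 0.413 TPM in darkness (2.01; adjusted p = 9.66e-18). The largest falls were those of MpHA8, with 75.9 ± 1.07 TPM in blue light and 123 ± 5.84 TPM in darkness (−0.69; adjusted p = 3.60e-14), and of MpHA6, with 1.29 ± 0.107 TPM in blue light and 2.68 ± 0.0906 TPM in darkness (−0.69; adjusted p = 0.000109). The median of the 16 was 0.31, against 0.027 for all tested genes. Reads of such a gene family can be split between copies, so values of single pumps are uncertain.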

How the data were processed

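RNA of Tak-1 thalli was measured in 78 poly(A) libraries, read as pairs of 150 bases per the labels' protocols. The authors deposited TPM per gene and library, and STAR is named in the submitters' processing notes; the sources used here give no version, genome build, annotation or quantification tool. Every deposited column of TPM sums to 1000000, so depth and precision of counting are unknown. A deposited table of the authors' group means (26 columns) was not used. Identifiers were matched by number to a name table of assembly MpTak2_v7.1: 17384 of 19355 matched and 3091 carried a symbol, and 59 of 61 identifier numbers that the deposited table skips are skipped there too. No coordinates are printed.

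Samples were grouped by their labels. The 13054 genes that reached 1 TPM in 3 libraries were fitted as log2(TPM + 1) in 1 limma 3.58.1 model (R 4.3.3), with 1 mean per group, all 78 libraries and an intensity trend. Moderated tests compared each light with darkness, darkness with time zero, and lights with each other, and an F test took the 5 times together; p-values were adjusted by Benjamini-Hochberg over all tested genes of a comparison. The fit was tested on simulated data. The ratio of the members was tested by exact permutation within times (Python 3.11.15, scipy 1.17.1). The p-values measure the spread between libraries that may share a plate. Named genes were both members, the listed photoreceptors, of other lists up to 2 rises and 2 falls in blue light at 24 h, and the 5 most and 2 least alike genes. The members and lists were chosen with earlier results of these data known. Alternatives were pseudocounts of 0.1 and 5, no filter or a minimum of 5 TPM, median-of-ratios scaling, quantile normalization, no trend, only the groups compared, a replicate block, and leaving out each library or replicate number.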

Additional observations from a re-analysis of the deposited data

Results flagged for a closer look

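The 46 log2 differences below are listed because they passed limma's test of the difference itself (adjusted p under 0.05). Each compares a light with another at the same time, or the response at 24 h with that at 30 min. Many tested genes passed the same tests. At 24 h the shares were 45.2% for blue minus red, 41.5% for white minus blue and 46.7% for white minus red light. They were 72.4% for blue minus far-red and 77.3% for red minus far-red light. For the response over time, 48.8% (far-red light) to 75.2% (red light) passed. Chance gives some such calls, and none was checked in other samples. Blue minus red light was 0.33 at 60 min, 0.51 at 180 min, 0.79 at 12 h and 1.09 at 24 h for MpPHOT, and 0.36 at 180 min, 0.66 at 12 h and 0.89 at 24 h for MpNCH1. White minus blue light was −0.28 at 30 min, −0.20 at 60 min, −0.50 at 12 h and −0.45 at 24 h for MpPHOT, and −0.27 at 12 h and −0.29 at 24 h for MpNCH1. The genes shared this direction at 12 and 24 h. White minus red light was −0.23 at 30 min, 0.46 at 180 min, 0.29 at 12 h and 0.65 at 24 h for MpPHOT, and −0.16 at 30 min, 0.44 at 180 min, 0.39 at 12 h and 0.61 at 24 h for MpNCH1. The sign at 30 min was opposite to that at later times, and the 30 min calls ended without 1 library. In all, 7 of the 39 calls between lights ended when 1 library was left out, none of them larger than 0.28. Blue minus far-red light was −0.17 at 30 min, −1.0 at 60 min, −1.47 at 180 min, −0.93 at 12 h and −0.68 at 24 h for MpPHOT, and −0.26 at 60 min, −0.38 at 180 min, −0.37 at 12 h and −0.12 at 24 h for MpNCH1. Red minus far-red light was −0.21 at 30 min, −1.33 at 60 min, −1.98 at 180 min, −1.72 at 12 h and −1.77 at 24 h for MpPHOT, and −0.32 at 60 min, −0.74 at 180 min, −1.03 at 12 h and −1.02 at 24 h for MpNCH1. The 24 h response less the 30 min response was −0.62 for MpPHOT and −0.61 for MpNCH1 in white light, −0.45 and −0.45 in blue light, and −1.5 and −1.38 in red light, and in far-red light −0.35 for MpNCH1. These values include the rise of darkness over that span.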

How the results depend on the processing

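Of 2358 values of the 121 results under the alternatives, 2257 kept their direction and their side of the threshold, and so did all 1608 of the 77 results of at least 0.3 in size. Changes were found in 27 results. Median-of-ratios scaling gave, against darkness at 30 min, −0.17 (MpPHOT) and −0.21 (MpNCH1) in white light, 0.042 and −0.14 in blue light, 0.0013 and −0.11 in red light, and −0.20 for MpNCH1 in far-red light at 60 min. With it MpNCH1 also turned to 0.043 for white minus blue at 60 min and −0.13 for red minus far-red at 30 min, and MpPHOT to −0.012 for the far-red response over time. Quantile normalization gave MpNCH1 0.072 (red, 30 min), −0.13 (far-red, 60 min) and 0.0091 (white minus blue, 60 min). These scalings remove the shift of the median gene by construction. Leaving out 1 library or replicate number gave, for MpPHOT, −0.032 to 0.013 in white light at 30 min, −0.21 to −0.13 in blue light at 24 h, −0.13 to 0.12 for darkness minus time zero at 60 min and −0.0049 to 0.13 for the far-red response over time. For MpNCH1 it gave 0.061 to 0.13 in blue, 0.090 to 0.16 in red and 0.047 to 0.18 in far-red light at 30 min, −0.11 to 0.0060 in far-red light at 60 min, −0.044 to 0.021 and −0.027 to 0.13 for darkness minus time zero at 30 and 60 min, −0.069 to 0.0092 for blue minus red, −0.090 to 0.027 for blue minus far-red and −0.032 to 0.056 for red minus far-red at 30 min, and −0.071 to 0.049 for white minus blue at 60 min. Same-numbered libraries of light and darkness did not deviate together (60 pairs, r from −0.25 to 0.15, median −0.009), so the numbers do not pair them; with a replicate block 121 of 121 results kept their call. Pseudocounts of 0.1 and 5 and a minimum of 5 TPM changed no call, and no filter, no trend and fitting only the groups compared each ended 1 call of the 30 min differences between lights. The cause was not tested. TPM keeps no depth, so what depth limits cannot be told.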
